A study of Mus musculus with 5 samples.

Results

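The 10 genes described here, of 32285 in the count matrix, are the TGF-beta ligands Tgfb1, Tgfb2 and Tgfb3, the latency protein Ltbp1, the receptors Tgfbr1 and Tgfbr2, the inhibitory Smad7, and Ccn1, Ccn2 and Acta2, which respond to the pathway. They were chosen by symbol, and all 10 were found. In GENCODE vM21 (GRCm38) the ligand genes lie at chr7:25687002-25705077 (Tgfb1), chr1:186622792-186705989 (Tgfb2) and chr12:86056745-86079041 (Tgfb3), and Ltbp1 lies at chr17:75005568-75392512. Tgfbr1 is at chr4:47353222-47414931, Tgfbr2 at chr9:116084293-116175360, Ccn1 at chr3:145646976-145649981, Ccn2 at chr10:24595442-24598683 and Acta2 at chr19:34241090-34255590. Kidneys of young adult male C57BL/6J mice were taken after a sham operation or at day 1, 3, 14 or 28 after unilateral ischemia-reperfusion (UIR), in which the left renal pedicle was clamped for 35 minutes. Sham mice had no clamp, and no transgene or deleted allele is named for any of the 5 conditions. Each condition was listed as 1 sample, from kidneys of 3 mice, and the transcripts of single cells were counted by unique molecular identifiers (UMIs). The matrix held 5 libraries, numbered 1 to 5 in its barcodes. The methods count more matrices than that, so how the mice of a condition were combined is not settled here. No label says which library is sham or which day, so libraries are named by number only, nothing is given by condition, and no test was run.

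TGF-beta is secreted as an inactive complex with its own propeptide, which latent TGF-beta binding proteins such as the product of Ltbp1 tether to matrix. Integrins and proteases release the active ligand. It then binds the type II receptor (Tgfbr2), which recruits and phosphorylates the type I receptor (Tgfbr1), and this activates Smad2 and Smad3. Smad7 is induced by the pathway and blocks the type I receptor. In the kidney TGF-beta is best known as a driver of fibrosis and of the myofibroblast state, marked by the smooth muscle actin gene Acta2. Ccn2 (connective tissue growth factor) is a direct Smad target. Both Ccn2 and its relative Ccn1 are also switched on by the coactivator YAP and by stress signals.

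After calling and filtering, 57691 cells were kept, 8233 to 19000 per library, with library medians of 4038 to 5347 UMIs. Cells were sorted into compartments by how many of 8 marker genes they carried for each of 13 cell types, none of them a gene described here. This gave 45666 tubule cells, 108 stromal cells (56 fibroblasts, 46 mural cells), 294 endothelial cells, 4502 immune cells and 80 podocytes. The remaining 7041 cells, 12.2%, had no compartment, and their median depth was 1020 UMIs. Stromal cells were few in every library, at 50, 33, 16, 8 and 1 in libraries 1 to 5. The labels give the cell type of every sample as goblet cell, and of 7 goblet cell markers none reached 100 UMIs in the kept cells. The highest, Agr2, was at 0.172 CPM (counts per 1000000 UMIs), so the kidney classes were used. Of 57336 distinct barcodes, 354 (0.617%) occurred in more than 1 library.

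Each CPM is the total of a gene's UMIs in a group over the total of all UMIs there, and the range in brackets is its exact 95% Poisson interval. Ratios of 2 groups are on the log2 scale, with exact binomial intervals conditional on the sum. The intervals cover counting error only. They treat UMIs as independent and leave out differences between cells and mice, so they are too narrow where a few cells hold most UMIs. Values within a library are given for classes with at least 20 cells in it. Fibroblasts reached this only in library 1 and mural cells only in library 2. Mural to fibroblast ratios are therefore pooled, and differences between these classes cannot be told apart from differences between libraries. The level in free RNA, from barcodes too shallow to be cells, is given beside some values. It is the make-up of free RNA and not the amount that free RNA adds to a cell. Free RNA was estimated at 0.188, 0.0275, 0.0163, 0.00174 and 0.00638 of tubule UMIs in libraries 1 to 5. For endothelial UMIs the estimate was 0.0385, 0.0148 and 0.0831 in libraries 1 to 3.

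The sources of the genes differed by member. Of the gated UMIs, Tgfb1 came mostly from immune cells (67.9%), although these were 8.89% of gated cells. Endothelium and stroma together were under 1% of gated cells (0.58% and 0.213%), and they supplied 22.6% and 11.2% of Tgfb2 UMIs, beside 58.2% from the tubule. Gated cells held 545 of the 1012 Tgfb2 UMIs. Over all kept cells 413 lay in Pax8/Cdh6 cells, a group, partly from stroma, that is described after the injured tubule, 317 in the tubule, 123 in endothelium and 15 in the other stroma. By number, most gated UMIs of Ccn1 (99.5%), Smad7 (95%), Tgfbr1 (85.9%), Ccn2 (82.6%) and Tgfbr2 (81.8%) lay in tubule cells. Of Ltbp1, 50.6% lay there. Tubule cells were 90.2% of gated cells.

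**Figure D1:**
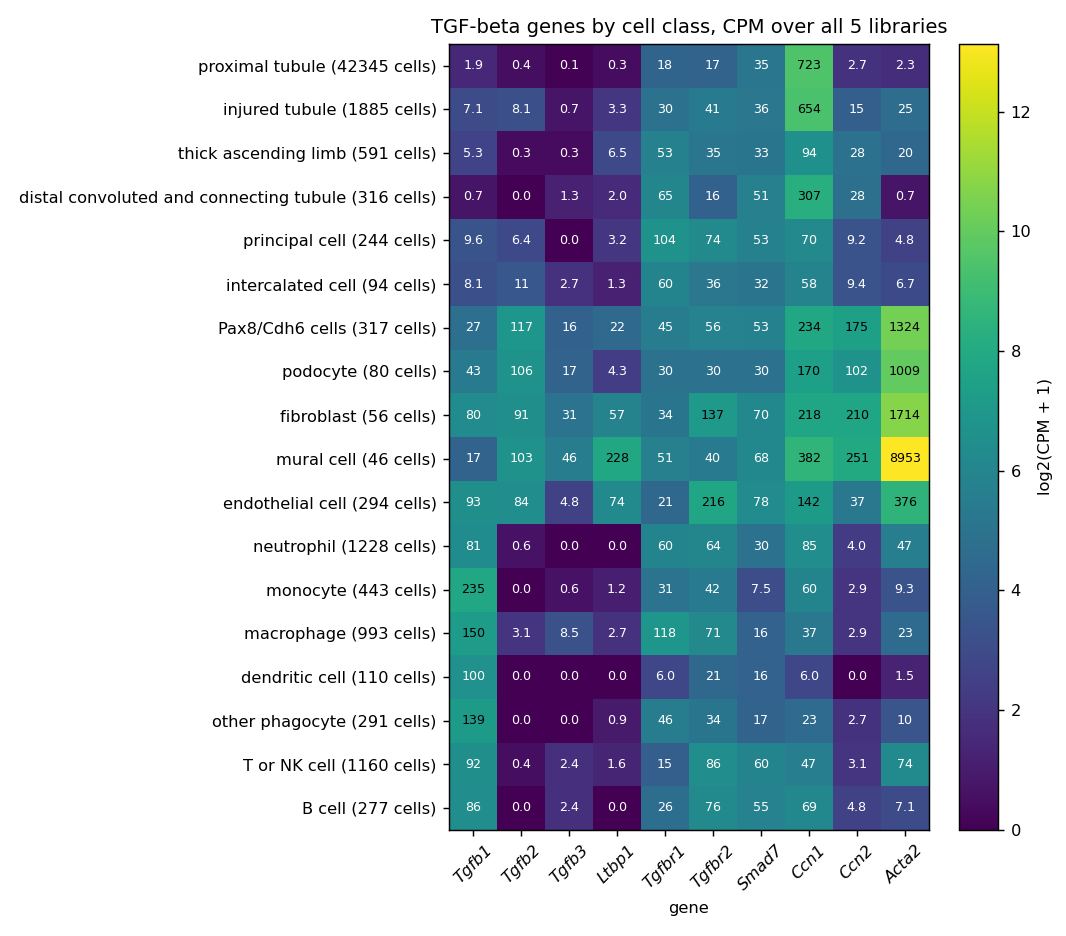
Level of the 10 TGF-beta genes in 17 cell classes and in Pax8/Cdh6 cells, summed over all 5 libraries. Pax8/Cdh6 cells are a group defined by a gene set named in the text and not by a class. Colour is log2(CPM + 1) and the printed value is CPM. Tgfb1 is highest in monocytes (235 CPM), Tgfbr2 in endothelial cells (216 CPM), Acta2 in mural cells (8953 CPM) and Ccn1 in the proximal tubule (723 CPM).

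A gene was called for a compartment when its CPM there was at least 2 times that in each of the other 3 (podocytes were left out as too few). Among 14661 genes with at least 100 UMIs, this rule called 13.6% for the tubule, 8.18% for stroma, 7.28% for endothelium and 7.31% for immune cells. All 10 genes were above the UMI minimum. Of them, 1 was called for the tubule (Ccn1), 3 for stroma (Tgfb3, Ccn2 and Acta2), 1 for endothelium (Tgfbr2) and 0 for immune cells, and 5 were not called. With 10 members, 1 call in a compartment is close to these shares. For Ccn1, Tgfb3, Ccn2 and Acta2 the lower end of the interval was also above 2-fold, but not for Tgfbr2. The call of Tgfbr2 was lost in 5 of 17 other settings and Tgfbr1 was called for immune cells in 5 of 17, without library 1 among them in both cases. Cells of 1 compartment are not replicates, so the calls carry no p-value.

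The promoter of Ccn1 is shown because Ccn1 was the only one of the 10 genes called for the tubule, while its relative Ccn2 was called for stroma. RefSeq gives the start of the gene on the minus strand of chromosome 3, and the 250 bases before it lie at chr3:145649986-145650235 (GRCm38.p6). Capitals mark the letters GGAATG or their reverse complement CATTCC, the core of the site that TEAD proteins, the DNA-binding partners of YAP, are known to bind.
Ccn1 promoter: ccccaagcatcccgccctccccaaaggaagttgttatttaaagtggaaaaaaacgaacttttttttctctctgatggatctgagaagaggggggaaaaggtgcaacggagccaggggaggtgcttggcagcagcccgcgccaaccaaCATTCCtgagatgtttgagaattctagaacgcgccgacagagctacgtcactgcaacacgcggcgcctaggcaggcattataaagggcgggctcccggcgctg

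The only match began 103 bases before the start. In the Acta2 promoter, also searched, the same letters occurred once and began 146 bases before the start, and they were absent from the windows of Tgfb1, Tgfb2, Tgfbr1, Tgfbr2 and Ltbp1. Of 32851 mouse promoters of 300 bases, 14.7% held these letters on either strand. The letters CC, 6 bases of A or T, and GG, the perfect CArG box of serum response factor, stood in 1.63% of promoters. They stood in none of the 7 members with an entry in the promoter set. A CArG box with any other base was not searched for. Its presence in these genes, Acta2 among them, is therefore not settled here. The Smad-binding letters GTCTG or CAGAC stood in 49.6% of promoters, and in a window of 6 of the 7 members, all but Tgfb1. A match is a description of the letters in this window and not a site of binding. No promoter is shown for Ccn2, Tgfb3 and Smad7, which had no entry in the set used. The promoters of Ccn1 and Ccn2 are therefore not compared.

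Among the ligands, Tgfb1, the isoform most tied to immune regulation and fibrosis, was highest in monocytes. It stood at 235 CPM (212 to 259) there, at 150.3 CPM (140.3 to 161) in macrophages and at 139 CPM in the other phagocytes, which carried phagocyte markers but no class. The interval of monocytes did not overlap the next one. Dendritic cells (100.4 CPM), endothelial cells (93.4), T or NK cells (92.1), B cells (85.7), neutrophils (81.2) and fibroblasts (80.4) followed, each with an interval that overlapped that of its neighbour. In fibroblasts, 14 of 31 Tgfb1 UMIs lay in 1 cell. The immune compartment as a whole was at 136 CPM and endothelium at 93.4 CPM, a log2 ratio of 0.54 (0.29 to 0.80), so Tgfb1 was not called. Proximal tubule cells, at 1.9 CPM, lay below their free RNA level of 5.7 CPM.

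Tgfb1 was not level across libraries. In macrophages it was 55.9, 185, 150.4, 225 and 79.9 CPM in libraries 1 to 5, and in monocytes of libraries 1 to 4 it was 102, 408, 225 and 219.8 CPM. T or NK cells were at 54.2, 129, 54.9, 132 and 48 CPM. Library 1 was the lowest of the first 4 in each of these 3 classes, and library 2 was above library 1 in all of them. Other phagocytes, at 55.3, 197, 140 and 174 CPM in libraries 1 to 4, were also lowest in library 1. In neutrophils library 3 was lowest (35.6, 137, 22.5 and 108 CPM in libraries 1 to 4, the first on 2 UMIs). Endothelial cells were at 70.2, 143 and 62.4 CPM in libraries 1 to 3. Free RNA held 1.85, 15.8, 4.33, 5.17 and 1.75 CPM of Tgfb1 in libraries 1 to 5, also highest in library 2. The highest library was not the same in each of the first 3 classes, being library 4 in macrophages and in T or NK cells and library 2 in monocytes. The monocyte to macrophage ratio was 0.64 (0.47 to 0.81) and 0.86, 1.15, 0.58 and −0.03 within libraries 1 to 4, so library 4 showed no difference.

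Tgfb2, the isoform required for heart and kidney development, had another distribution. It was at 84.5 CPM (70.2 to 101) in endothelial cells, 90.7 CPM in fibroblasts and 103 CPM in mural cells, with overlapping intervals. No UMI was found in monocytes, dendritic cells, other phagocytes or B cells, which in monocytes allows up to 1.74 CPM at 3 UMIs. Endothelial levels were 81.5, 61.2 and 138 CPM in libraries 1, 2 and 3. In podocytes the level was 106 CPM, but 76.0% of its UMIs lay in 1 cell. The stroma to endothelium ratio of Tgfb2 was 0.24 (−0.23 to 0.69), and the interval held 0. The direction turned without Pax8/Cdh6 cells, when stroma was at 53.8 CPM.

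Tgfb3, an isoform of palate and lung development, rested on only 192 UMIs over all kept cells. It was at 34.4 CPM (21.3 to 52.5) in stroma and 4.81 CPM in endothelium, a log2 ratio of 2.84 (1.55 to 4.31) resting on 21 and 7 UMIs. Among immune cells it was found chiefly in macrophages, at 8.47 CPM (6.23 to 11.3), and macrophages of the 5 libraries stood at 13, 7.55, 4.18, 7.43 and 16 CPM, the last from 1 UMI in 39 cells (0.405 to 89). Neutrophils, dendritic cells and other phagocytes had no Tgfb3 UMI.

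Ltbp1, which anchors the latent complex, was highest in mural cells, and endothelial cells and fibroblasts followed with overlapping intervals. It was at 228 CPM (163 to 310.2) in mural cells, 73.5 CPM (60.2 to 88.8) in endothelial cells and 57 CPM (35.7 to 86.4) in fibroblasts. The mural to fibroblast ratio was 2.0 (1.21 to 2.82), with 22 of the 40 mural UMIs in library 2. Stroma was below endothelium in library 1 (58.6 against 73.9 CPM) and above it in library 2 (211 against 89.7 CPM). Endothelial levels were 73.9, 89.7 and 46 CPM in libraries 1 to 3. In endothelial cells a UMI of Tgfb2 and of Ltbp1 occurred together in 24 of 294 cells, against 44 with Tgfb2 alone and 40 with Ltbp1 alone.

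The 2 receptors were not highest in the same cells. Tgfbr2 led in endothelial cells at 216 CPM (193 to 242), above fibroblasts at 137 CPM (103 to 179.7) and T or NK cells at 85.8 CPM. Its endothelial level was 191, 239 and 213 CPM in libraries 1 to 3, a narrow range beside that of the ligands. The ratio to stroma was 1.14 (0.74 to 1.56), and the call rests on the stromal level, since mural cells were at 39.9 CPM and the mural to fibroblast ratio was −1.79 (−3.17 to −0.64). Within library 2 endothelium was less than 2-fold above stroma, at 239 and 141 CPM.

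Tgfbr1 was highest in macrophages at 118 CPM (109 to 127) and in collecting duct principal cells at 104 CPM (91.3 to 117), with overlapping intervals. Endothelial cells, which led for Tgfbr2, had 20.6 CPM (13.9 to 29.4), beside 13.4 CPM in their free RNA. In library 1 they were at 32.2 CPM (18.8 to 51.6) against 7.1 CPM in free RNA. In libraries 2 and 3 they were at 14.3 and 16.4 CPM against 17.4 and 17.3 CPM. The macrophage level varied widely, at 123, 155, 48, 74.3 and 495 CPM in libraries 1 to 5, and library 5 held 39 macrophages. Principal cells were steadier, at 98.7, 148, 105, 85.1 and 63.6 CPM. Monocytes had less than macrophages, with a ratio of −1.92 (−2.34 to −1.51) and −2.27, −3.36, −0.44 and −2.31 within libraries 1 to 4. The direction was the same in all 4 libraries, opposite to that of Tgfb1 in the first 3. The monocyte Tgfbr1 levels rest on 2, 2, 46 and 3 UMIs in libraries 1 to 4. Library 3 held 321 of 443 monocytes, and there the monocyte and macrophage intervals overlapped (26 to 47.3 and 35.2 to 64.1 CPM). Macrophages were lowest in that library, so the pooled ratio is not free of library make-up.

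Principal cells also held the highest Tgfbr2 level of the nephron, 73.5 CPM (63.2 to 84.9), against 17 CPM in the proximal tubule, 15.9 CPM in the distal convoluted and connecting tubule and 35.2 CPM in the thick ascending limb. Both receptor transcripts were thus higher in principal cells than in the proximal tubule, by 104 against 18.1 CPM for Tgfbr1. In the proximal tubule the levels were even across libraries, from 15.7 to 21.9 CPM for Tgfbr1 and from 13.1 to 22.4 CPM for Tgfbr2.

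**Figure D2:**
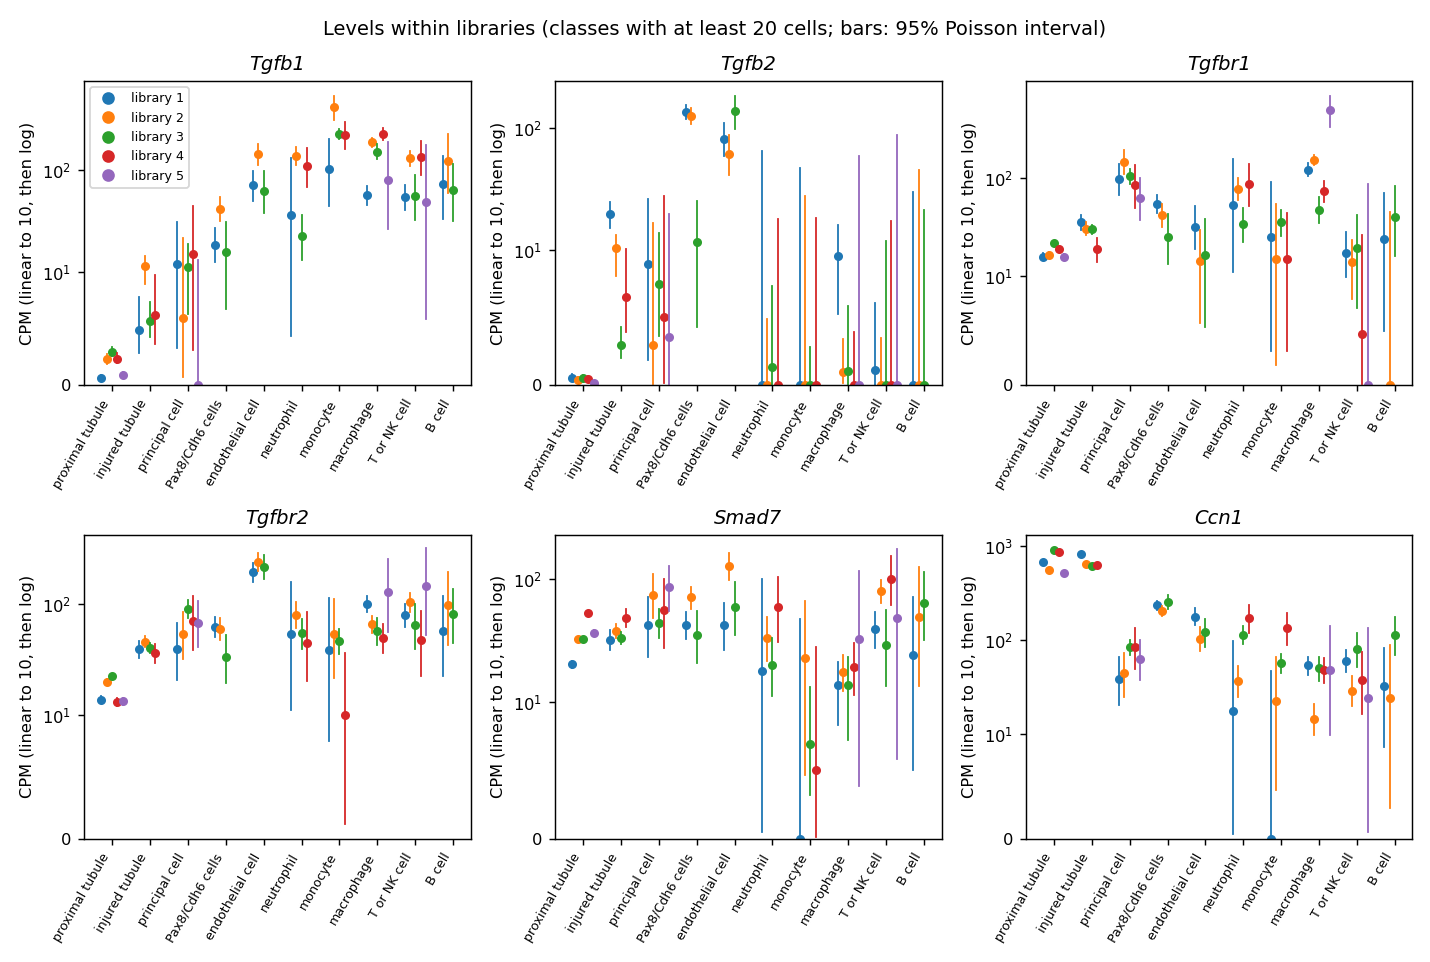
CPM of 6 genes in 10 groups of cells by library (colours), with 95% Poisson intervals, for groups with at least 20 cells in the library. The axis is linear to 10 and logarithmic above. Tgfbr2 lies at 191 to 239 CPM in the endothelial cells of libraries 1 to 3, while Tgfbr1 in macrophages runs from 48 to 495 CPM.

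Smad7, the feedback inhibitor, had the smallest ratio of highest to lowest level of the 10 genes over the 17 classes. Endothelial cells were at 78.3 CPM (64.6 to 94.1), fibroblasts at 70, mural cells at 68.3, T or NK cells at 59.5, B cells at 54.7 and the proximal tubule at 34.6 CPM. The endothelium to stroma ratio was 0.15 (−0.36 to 0.70). Monocytes were lowest at 7.53 CPM (4.01 to 12.9), although they were highest for Tgfb1. The proximal tubule gave 20.1, 32, 32.3, 52.9 and 36.4 CPM in libraries 1 to 5, so library 4 was highest and library 1 lowest. Free RNA ran from 8.65 CPM in library 1 to 27 CPM in library 4, in the same order for these libraries. T or NK cells ran in the same order for these 2 libraries, at 39 CPM in library 1 and 99 CPM in library 4, and endothelial cells at 41.7, 126 and 59.1 CPM were highest in library 2.

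Of the responding genes, Ccn1, a matricellular protein of the CCN family, was a tubule transcript. It stood at 698 CPM in the tubule and 252 CPM in stroma, a log2 ratio of 1.47 (1.24 to 1.71) or 2.77-fold. Proximal tubule cells were at 673, 556, 923, 875 and 515 CPM in libraries 1 to 5, and free RNA was at 141, 251, 211, 419.9 and 146 CPM. The tubule was above free RNA in all 5 libraries. Along the nephron Ccn1 was 307 CPM in the distal convoluted and connecting tubule, 94 CPM in the thick ascending limb and 70.3 CPM in principal cells, the last 2 below most free RNA levels. Immune cells, at 46.4 CPM, were also below free RNA. Mural cells stood at 382 CPM (296 to 485) and fibroblasts at 218 CPM, a ratio of 0.81 that became 2.43 without Pax8/Cdh6 cells. Over all settings this ratio ran from −0.35 to 2.43, so its sign was not fixed. Of the 67 mural UMIs, 26.9% lay in 1 cell. Mural cells of library 2 were at 197 CPM and fibroblasts of library 1 at 252 CPM.

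Immediate early genes, a stress set that the warm digestion of tissue is known to switch on, were high beside Ccn1. The sum of 15 of them was 6947 CPM in the proximal tubule and 24348 CPM in endothelial cells, where Ccn1 was 142 CPM. In the proximal tubule the sum was 4841, 7945, 7906, 7109 and 6359 CPM in libraries 1 to 5, an order unlike that of Ccn1. In the tubule Jun, Fos and Dusp1 led at 2494, 1404 and 605 CPM. The part of dissociation in the level of Ccn1 was not tested.

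Ccn2, the better known TGF-beta target, was called for stroma. It was at 229 CPM (193 to 270.2) there and at 37.1 CPM in endothelium, a ratio of 2.63 (2.16 to 3.11). Mural cells (251 CPM) and fibroblasts (210 CPM) did not differ beyond their intervals. Proximal tubule cells, which led for Ccn1, were at 2.74 CPM, and the thick ascending limb stood at 28.4 CPM, where 49.8 CPM in library 3 contrasted with 0 to 7.69 CPM in the others. Stroma gave 225 and 296 CPM in libraries 1 and 2, the only libraries with at least 20 stromal cells. By number, 82.6% of gated Ccn2 UMIs lay in the much larger tubule compartment, at 4.3 CPM, and 9.39% in stroma.

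Acta2, smooth muscle actin, was at 8953 CPM (8515 to 9406) in mural cells, 1714 CPM (1586 to 1849.6) in fibroblasts and 376 CPM in endothelial cells. Stroma was 10.3-fold above endothelium, with a log2 ratio of 3.37 (3.23 to 3.51), and stood at 3515 and 3978 CPM in libraries 1 and 2. Mural cells include vascular smooth muscle, in which Acta2 is a resident transcript. At least 10 Acta2 UMIs were found in 37 of 46 mural cells and in 18 of 56 fibroblasts. In 11 of 294 endothelial cells the same was seen. These 11 held 83.9% of the endothelial Acta2 UMIs, and 10 of them carried at least 2 stromal markers, as did 39 endothelial cells in all. Without such cells of mixed markers the stroma ratio of Acta2 was 5.73, and over all settings it ran from 2.46 to 5.73. Among T or NK cells 1 cell held 86.7% of the Acta2 UMIs, and among macrophages 1 cell held 58.9%. Neutrophils differed, with 84 UMIs spread over 71 of 1228 cells and 47.4 CPM against 26.7 CPM in free RNA. They stood at 142, 63.7, 34.4 and 9.8 CPM in libraries 1 to 4, where free RNA was at 51.9, 35.2, 18.8 and 17.9 CPM, and both had the same library order. Monocytes (9.27 CPM) and the proximal tubule (2.34 CPM) were below free RNA.

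Injured tubule cells were tubule cells with at least 2 of Havcr1, Krt20, Vcam1, Sox9 and Dcdc2a, and they numbered 265, 492, 889, 221 and 18 in libraries 1 to 5. They were compared with the other proximal tubule cells, a contrast chosen after the values were seen. The median depth was 9613 UMIs in injured and 5306 UMIs in proximal tubule cells. Tgfb2 was at 8.08 CPM (6.96 to 9.34) against 0.402 CPM, a log2 ratio of 4.33 (3.97 to 4.69), and 5.21, 4.79, 2.54 and 4.01 within libraries 1 to 4. The other large ratios were those of Acta2 (3.39, with 4.19, 3.38, 0.55 and 3.84), Tgfb3 (3.39, on 16 and 17 UMIs), Ltbp1 (3.32), Ccn2 (2.43, with 3.68, 3.02, 1.27 and 2.12) and Tgfb1 (1.91, with 2.96, 2.31, 0.96 and 1.40).

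The receptors were nearer to level, with Tgfbr2 at 1.27 (1.16 to 1.37) and Tgfbr1 at 0.71 (0.59 to 0.82). Smad7 was at 0.05 (−0.06 to 0.15) and Ccn1 at −0.14 (−0.17 to −0.12). For Ccn1 the libraries disagreed in sign, at 0.29, 0.22, −0.58 and −0.48. Library 3 had the smallest ratio of the 4 for Tgfb2, Acta2, Ccn2 and Tgfb1, and it held the most injured cells. The level in free RNA is given beside these ratios. In the proximal tubule all 10 genes but Tgfbr1, Smad7 and Ccn1 were below it. In injured cells Tgfb2 (8.08 against 2.9 CPM in free RNA) and Tgfbr2 (40.9 against 23.2 CPM) were above it, while the pooled levels of Tgfb1, Tgfb3 and Acta2 were at or below it, and those of Ltbp1 and Ccn2 were close to it. The libraries differed in this. Tgfb2 was above free RNA in libraries 1 (19.6 against 1.85 CPM) and 2 (10.4 against 2.43 CPM), and was level with it in libraries 3 (2.98 against 2.57 CPM) and 4 (6.48 against 6.46 CPM). Tgfbr2 was above it in libraries 1 to 3 but not in library 4 (35.8 against 38.6 CPM), and Acta2 was above it in library 1 alone (89.7 against 51.9 CPM). Ccn2 was above it in libraries 1 (15.9 against 2.47 CPM) and 3 (14.2 against 7.22 CPM) and below it in library 2 (16.9 against 30.3 CPM). In library 4 Ccn2 was at 10.6 CPM, and its interval (7.19 to 15) held the free RNA level of 7.75 CPM. In library 1 Tgfb1 (4.83 against 1.85 CPM), Tgfb3 (1.99 against 0.309 CPM) and Ltbp1 (2.84 against 0.309 CPM) were above it too. By level, library 1 thus stood above free RNA for each of these genes. Its free RNA held 6, 1 and 1 UMIs of Tgfb1, Tgfb3 and Ltbp1, and its injured cells held 7 UMIs of Tgfb3. The free RNA levels of Tgfb3 and Ltbp1 there are therefore only rough. Ltbp1 was also above free RNA in library 3 (3.7 against 1.93 CPM). With free RNA subtracted, the Tgfb2 ratio was 4.6 and that of Acta2 was 4.15. The sum of immediate early genes was 9089.9 CPM in injured cells and 6947 CPM in proximal tubule cells.

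Injured cells were also divided by a set of 6 genes (Pax8, Cdh6, Cldn1, Dcdc2a, Cp and Ncam1). The set was found through other cells with much Acta2, and Dcdc2a is also among the injury markers, so the division is a description and the Acta2 difference was partly fixed by it. Cells with at least 3 of the 6 numbered 534 and had a median of 12581.5 UMIs, and the other 1351 had 8800 UMIs, so the division also follows depth. Tgfb2 was at 20.7 CPM (17.8 to 24) in the first and 0.423 CPM (0.155 to 0.921) in the second, which was near the 0.402 CPM of the proximal tubule and below free RNA (2.99 CPM). In libraries 1 to 4 the first group gave 31.5, 22.7, 10.6 and 18.8 CPM and the second 1.43, 0.287, 0.278 and 0.507 CPM, with no overlap. Acta2 was at 61.2 and 2.4 CPM, Ccn2 at 22.1 and 10.2 CPM and Tgfb1 at 11.2 and 4.65 CPM. For Ccn2, library 3 went the other way, at 12.6 and 14.7 CPM. For Tgfb1, library 4 did so, at 5.23 and 6.59 CPM on 5 and 13 UMIs. Tgfbr1 (30.8 and 28.9 CPM) and Smad7 (32.2 and 37.9 CPM) had overlapping intervals in the first and the second. Tgfbr2 was higher in the first, at 52.3 CPM (47.6 to 57.4) against 34 CPM (31 to 37.2), as was Ltbp1, at 6.17 CPM (4.62 to 8.08) against 1.55 CPM (0.972 to 2.35). In library 4 Ltbp1 went the other way, at 1.05 and 2.03 CPM on 1 and 4 UMIs. Ccn1 was lower in the first group, at 584 and 697 CPM, but higher in it in library 1, at 848 and 783 CPM.

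A few cells carried the Acta2 level of the injured class, since 12 of 1885 cells had at least 10 Acta2 UMIs each and together held 78.7% of the Acta2 UMIs. Of these 12 cells, 8 carried at least 2 stromal markers, as did 53 of the class. When tubule cells with 2 or more stromal or endothelial markers were left out, the Acta2 ratio of injured to proximal tubule was 1.98. With the injured class limited to cells with Havcr1 or Krt20 it was −0.24. The Tgfb2 ratio moved from 4.33 to 3.83 in the first of these settings and to 3.50 in the second. Without the cells of highest Scrublet score, a measure of doublets, the ratios were 3.30 for Acta2 and 4.53 for Tgfb2.

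**Figure D3:**
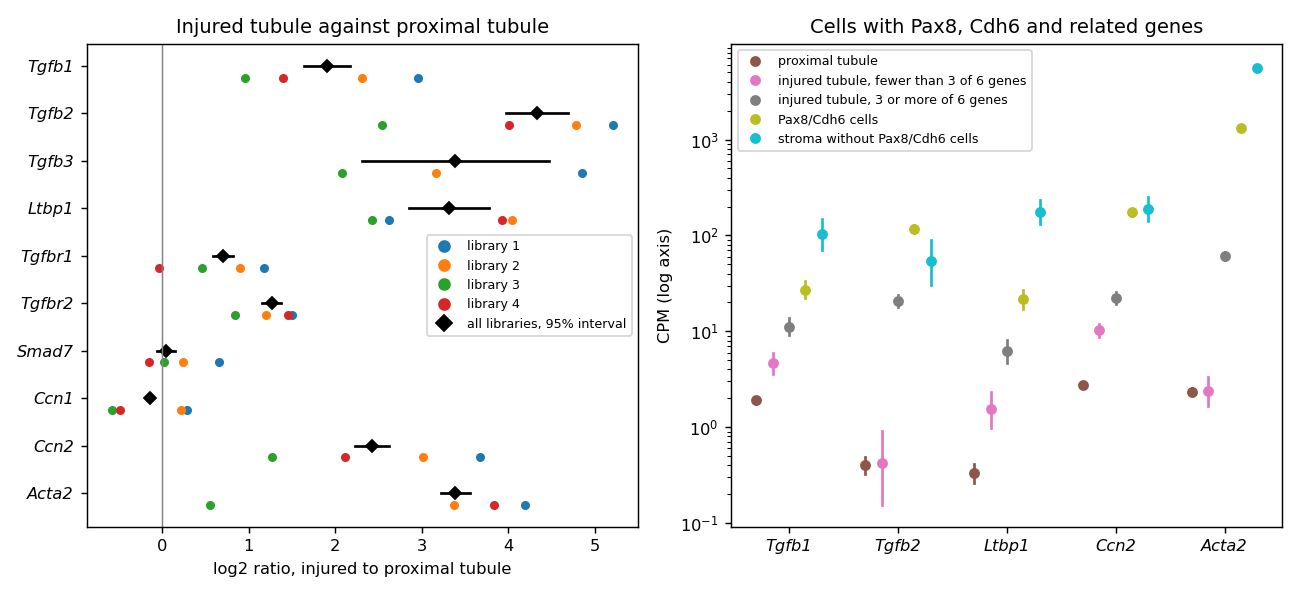
Left, log2 ratio of injured to proximal tubule for each gene, with its 95% interval (diamonds and bars) and the ratio within libraries 1 to 4 (coloured points). Right, CPM (log axis) with 95% intervals of 5 genes in 5 groups of cells. Tgfb2 is at 0.402 CPM in proximal tubule, 0.423 and 20.7 CPM in the injured groups and 117 CPM in the Pax8/Cdh6 cells.

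A large part of the UMIs of some of these genes lay outside all compartments. Cells without a compartment held 54.5% of the 10640 Acta2 UMIs in kept cells, 46.1% of the 1012 Tgfb2 UMIs and 36.4% of the 2345 Ccn2 UMIs, against 2.09% for Ccn1. Among them, 91 cells had at least 10 Acta2 UMIs. After these were seen, the same 6 genes were applied to all cells without a compartment and to stroma, and 317 cells carried at least 3 of the 6. They are called Pax8/Cdh6 cells here. The 6 genes are not confined to epithelium. In stroma without these cells, Cdh6, Cp and Ncam1 were at 39.5, 79 and 86.2 CPM, above the 3.36, 7.35 and 3.75 CPM of the proximal tubule. Pax8, Cldn1 and Dcdc2a went the other way, at 7.18, 7.18 and 3.59 CPM against 118, 9.94 and 13.1 CPM. This stroma was made by leaving out cells with at least 3 of the 6 genes, so their low levels in it were partly fixed. In the whole fibroblast class Pax8, Cldn1 and Dcdc2a were at 171, 90.7 and 166 CPM, above the proximal tubule. The rule uses none of the 10 genes, but it was found through cells with much Acta2, so the values are a description.

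Pax8/Cdh6 cells held 43.9% of all Acta2 UMIs, 40.8% of Tgfb2, 28.6% of Tgfb3, 26.3% of Ccn2 and 12.5% of Ltbp1, while they were 317 of 57691 cells. Of them, 30 had been gated as stroma. Libraries 1 to 5 held 130, 115, 56, 13 and 3, the median depth was 8027 UMIs, and 22 were among the cells of highest Scrublet score. They carried a median of 1 of 8 markers each for proximal tubule, fibroblast, mural cell and podocyte, and a median of 2 of the 5 injury markers, the number that placed a tubule cell in the injured class. Dcdc2a counts in both sets.

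The level of Acta2 in Pax8/Cdh6 cells was 2065, 998 and 50.3 CPM in libraries 1, 2 and 3. Tgfb2 was at 137, 127 and 11.6 CPM, and Tgfb3 at 18.4, 18.1 and 1.93 CPM. For these 2 genes the intervals of libraries 1 and 2 overlapped, so these libraries are not ordered. Library 3 was below the other 2 for all 3 genes, on 6 UMIs of Tgfb2 and 1 UMI of Tgfb3 (0.049 to 10.8 CPM). Ccn2 was at 158, 239 and 60 CPM. Tgfb1 was at 27.2 CPM over all of them, Tgfbr1 at 44.8, Tgfbr2 at 56.2, Smad7 at 53.3, Ltbp1 at 21.6 and Ccn1 at 234 CPM, the last near the 200.4 CPM of free RNA.

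Other genes of Pax8/Cdh6 cells belonged to several cell types. The smooth muscle gene Tagln was at 3819.8 CPM, against 4125 CPM in the other stroma and 3.67 CPM in the proximal tubule. Vim (vimentin) was at 2731 CPM, against 2445 and 9.85 CPM. The epithelial gene Epcam was at 94.2 CPM, against 3.59 CPM in the other stroma and 90.1 CPM in injured tubule, and Krt8 (keratin 8), at 341 CPM, stood between 32.3 CPM in the other stroma and 792 CPM in injured tubule. Genes of injured tubule were also present. Of these, Sox9, Havcr1 and Vcam1 are markers that define the injured class, so their levels in that class were partly fixed by its rule. Sox9 was at 119 CPM, against 146 CPM in injured tubule and 10.8 CPM in the other stroma, and Havcr1 (KIM-1) was at 68.6 CPM, against 216 and 0 CPM. Spp1 (osteopontin) was at 15822 CPM, against 18824 and 1745 CPM, and Vcam1, an adhesion molecule, was at 359 CPM, against 137 and 118 CPM. The collagen gene Col1a1 was at 78 CPM against 3134 CPM in the other stroma, Pdgfrb at 63.8 against 258 CPM, Myh11 (smooth muscle myosin) at 4.54 against 1379 CPM, and Ren1 (renin) at 0.567 against 3292 CPM. The megalin gene Lrp2 was at 88.2 CPM, against 887 CPM in the proximal tubule. Ptprc and Pecam1, which mark leukocytes and endothelium, were at 15.6 and 14.5 CPM. Wt1, a podocyte and parietal epithelial gene, was at 123 CPM against 558 CPM in podocytes, where 3 of 80 cells held 99.6% of the Acta2 UMIs. These genes were named after their values were seen, and the cells are given no type name.

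When Pax8/Cdh6 cells were left out of stroma, the 78 other stromal cells had 5568 CPM of Acta2 in place of 3888, 53.8 CPM (30.1 to 88.8) of Tgfb2 in place of 99.8, 190.3 CPM of Ccn2 in place of 229 and 176 CPM of Ltbp1 in place of 109.6. Tgfb2 was then lower in stroma than in endothelium (84.5 CPM), with overlapping intervals. The stromal Tgfbr2 level was 129 CPM, so endothelium was less than 2-fold above it and no gene was called for endothelium. Ltbp1 was called for stroma and Tgfbr1 for immune cells. The mural to fibroblast ratio of Ccn2 went from 0.25 to −0.54 and that of Acta2 from 2.39 to 3.13. In the fibroblast class 35.7% of cells carried at least 3 of the 6 genes, in mural cells 13.0%, in injured tubule 28.3%, in proximal tubule 1.32% and in endothelial cells 0.34%.

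**Figure D4:**
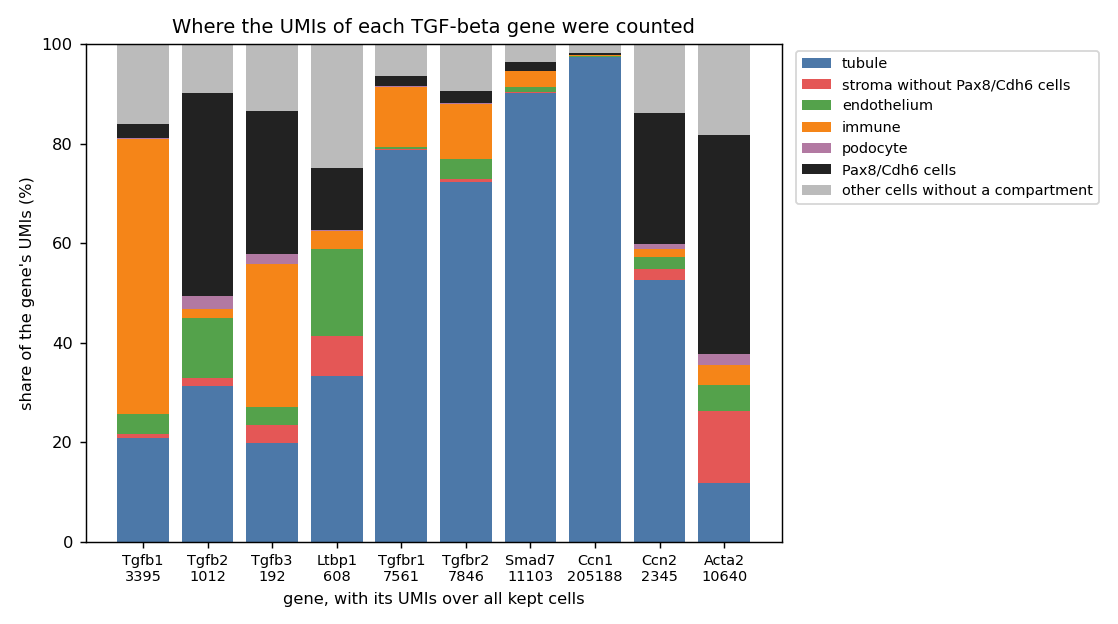
Share (%) of the UMIs of each gene by where they were counted, over all kept cells. The number under each gene is its UMI total. Pax8/Cdh6 cells (black) hold 43.9% of Acta2 and 40.8% of Tgfb2, immune cells (orange) most of Tgfb1, and the tubule (blue) nearly all of Ccn1.

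The rest of the pathway was read with the same rule, in lists that share some genes. Of 17 tested genes of latency and activation, 7 were called for stroma, 2 each for tubule, endothelium and immune cells, and 4 were not called. Over all tested genes the shares were 8.18% for stroma, 13.6% for the tubule, 7.28% for endothelium and 7.31% for immune cells, so the tubule count is near its share. The stromal ones included the binding proteins Ltbp2 (70.7-fold above the next compartment) and Ltbp3 (6.06-fold), the protease gene Mmp2 (6.32-fold) and the fibrillin gene Fbn1 (4.73-fold). Itgb6 and Itgb8, whose integrins release active TGF-beta at epithelia, were called for the tubule at 126 and 106 CPM, 8.79-fold and 6.49-fold above the next. Lrrc32 (GARP), which presents latent TGF-beta at the cell surface, was called for endothelium at 334 CPM. Nrros, its relative in myeloid cells, was called for immune cells at 87.3 CPM, as was the protease gene Mmp9 at 139 CPM.

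Of 8 co-receptors and related receptors, 3 were called for endothelium and the other 5 were not called. They were Eng (endoglin) at 638 CPM, Acvrl1 (the type I receptor ALK1) at 263 CPM and Bmpr2 at 185 CPM, and 7.28% of all tested genes were called for endothelium. Of 9 Smads and partners, Smad1 (97.5 CPM) and Smad6 (35.7 CPM) were called for endothelium and 6 were not called. Smad9 was called for stroma at 4.91 CPM against 2.06 CPM in endothelium, which is 3 UMIs in each. Smad2 (18 to 29.5 CPM), Smad3 (11 to 21.3 CPM) and Smad4 (23.7 to 61.1 CPM) lay within these ranges over the 4 compartments.

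Of 11 inhibitors, Nedd4l, a ubiquitin ligase, was called for the tubule (50.2 CPM), Pmepa1 for stroma (211 CPM), Smad6 and the ubiquitin ligase gene Smurf2 (60.4 CPM) for endothelium, and the corepressor genes Skil (185 CPM) and Tgif1 (135 CPM) for immune cells. The other 5 were not called. Over all tested genes the shares were 13.6% for the tubule, 8.18% for stroma, 7.28% for endothelium and 7.31% for immune cells. The tubule and stroma counts are near their shares, and with 11 genes counts of 1 or 2 are not read as a result. Of 22 tested target genes, 13 were called for stroma, 2 each for tubule, endothelium and immune cells, and 3 were not called. For the last 3 compartments 2 of 22 is near the shares of all tested genes (13.6%, 7.28% and 7.31%). The stromal ones were led by Tnc (89.6-fold), Ltbp2 (70.7-fold), Loxl2 (26.9-fold) and Timp1 (24.2-fold). The tubule had Itgb6 and Id2 (616 CPM), the endothelium Id1 (549 CPM) and Cdkn1a (1588 CPM), and immune cells Tgfbi (326 CPM) and Skil. Of 12 genes that answer to YAP or serum response factor, 6 were called for stroma, with Ankrd1 (32.8-fold), Tagln (22.8-fold), Myl9 (6.8-fold) and Cnn1 (4.57-fold) in the lead, 1 for endothelium (Lats2) and 5 were not called. No tested gene of this list was called for the tubule, where 13.6% of all tested genes were, so a count of 0 among 12 is little below that share, and Amotl2, a YAP target, was highest there at 108 CPM and 1.69-fold above stroma. For stroma the share of all tested genes was 8.18%, and stroma includes 30 Pax8/Cdh6 cells.

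Likeness between genes was measured by Pearson's r of log2(CPM + 1) over 57 pairs of class and library. The points share libraries, depth and composition, so r is a description. Genes most like Tgfb1 were Gnai2, Sp110 and Emp3 (r of 0.89 each), those most like Tgfb2 were Ltbp4 (0.88), Lmcd1 and Ndn, and those most like Acta2 were Myl9 (0.87), Bgn and Mustn1. Ltbp1 was closest to Map1a (0.86), Sparcl1 and Adamtsl1, Ccn2 to Cavin1 and Rbfox2 (0.81 each) and Hspb2, and Ccn1 to Ghr (0.87), Pth1r and Skp1a. The receptors and Smad7 had looser neighbours, Tgfbr1 with Cyb5r1 (0.72), Ralgapb and Atf3, Tgfbr2 with Selenok (0.74), Gbp7 and Ets1, Smad7 with Klhl24 (0.76), Smim11 and Nr2c2, and Tgfb3 with Itga8 (0.72), Col5a1 and Prkg1. Among the 10 genes, r was highest between Tgfb2 and Ltbp1 (0.74) and between Tgfb2 and Ccn2 (0.70), and lowest between Tgfb1 and Ccn1 (−0.57).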

How the data were processed

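Per the labels, the submitters' processing notes name Cell Ranger 6.0 and the build mm10, and the authors deposited raw UMI counts of 5 libraries in 1 matrix that still holds all barcodes. Nothing was normalised by them in this file. Cells were called in each library in 2 steps like those of Cell Ranger, by depth and then by comparison with free RNA (barcodes too shallow to be cells). Cells needed at least 200 genes and at most 25% mitochondrial counts. A cell took the compartment with at least 3 of 8 markers of one cell type and at least 2 more than any type of another compartment; 3188 cells were gated at this margin, and 1406 were 1 short of it. Counts were summed per class and given as CPM, with 95% intervals and a floor of 3 UMIs where a count was 0. Kept cells had a median of 4609 UMIs. Scrublet was run in each library (scanpy 1.11.5). Its own threshold marked 7 cells, so it did not work here, and doublets were kept. The alternative left out the highest scores at 0.8% per 1000 cells (5923 cells).

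The named genes were the 10 genes in every class, up to 4 genes of each list and compartment by the size of the ratio, the 3 genes most like each member, and summed immediate early and goblet cell markers. Genes of Pax8/Cdh6 cells fall outside this rule. The members and lists were chosen with earlier results of these data known. Promoters are from a set taken from RefSeq (GRCm38.p6), and 7 of the 10 genes had an entry in this set. This does not mean that RefSeq lacks the others. Calling, intervals and the 2-fold rule were tested on simulated data. There the rule also called 897 of 14461 unchanged genes, 588 of them for stroma, the compartment with the fewest UMIs of the 4. Of 6030 unchanged genes of high count it called 1. The 8.18% share of all tested genes called for stroma may therefore include such calls of low count. Python 3.11.15, numpy 2.4.6, scipy 1.17.1 and pandas 2.3.3 were used. In all, 18 settings were run, of which 4 were chosen after seeing the data.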

Additional observations from a re-analysis of the deposited data

How the results depend on the processing

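The calls for the tubule (Ccn1) and for stroma (Tgfb3, Ccn2 and Acta2) held in all 17 settings that change the compartments, and stroma gained Ltbp1 in 4 of them, giving 4 genes (mean of per-cell CPM, thinning to 1000 UMIs, library 1 left out, and stroma without Pax8/Cdh6 cells). The call of Tgfbr2 for endothelium was lost, from 1 gene to 0, with at most 10% mitochondrial counts, the stricter marker gate, libraries at equal weight and stroma without Pax8/Cdh6 cells. With each library left out in turn it ranged from 0 to 1, and the loss came without library 1, which held 50 of the 108 stromal cells. For immune cells the count moved from 0 to 1 gene (Tgfbr1) under the stricter gate, equal weight, thinning to 1000 UMIs and stroma without Pax8/Cdh6 cells, and it ranged from 0 to 1 over the libraries left out, with 1 without library 1. The cause was not tested. Over 69 log2 ratios and their 1172 values under alternatives, 1113 had the sign of the main value and 59 did not. Apart from the reversals named here, 241 values lay outside the counting interval of the main value. Of the 59, 4 values belonged to 3 ratios that were at least 2-fold with an interval clear of 0, and the other 55 to ratios that were smaller or had an interval holding 0. The 3 ratios were Acta2 in injured against proximal tubule (−0.24 with Havcr1 or Krt20 only), Tgfb1 in mural cells against fibroblasts (0.27 when thinned), and Acta2 in monocytes against macrophages (from −2.54 to 1.40 over the libraries left out, positive without library 1, and 1.23 without cells of mixed markers). The stromal gate held 183 cells when looser and 64 when stricter, and few cells limit the stromal values and few UMIs those of Tgfb3. No paired analysis was possible because each condition is 1 sample and the libraries carry no replicate number.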
